A study of Danio rerio with 2 samples.

Results

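Genes of the endoderm, the liver and the yolk syncytial layer were read from expression arrays of whole zebrafish embryos. The set had 9 genes, chosen by name with earlier results of these data known. They were the transcription regulators gata5, gata6, foxa3 and hhex, and the secreted-protein genes apoeb, tfa, ttr, fetub and vtnb. A gene was read through probe sets whose annotation named it and no other gene. This found 8 of the 9 genes, each with a single probe set, among 8791 genes in all. The gene ttr, for the thyroid hormone carrier transthyretin, was not analysed here.

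The embryos had been injected with a morpholino, an antisense oligomer made to stop a given transcript from being translated or spliced, and were collected at 24 hours after fertilization. One group received a morpholino against the DrC1q-like gene, which is named for its likeness to the C1q component of complement. The control group received a morpholino with 5 mismatches to that target. Both were injected at about 5 ng per embryo and kept at the same temperature, and neither the zebrafish strain nor the number of embryos per array is stated in the labels. The series was made to find which genes and pathways respond to loss of DrC1q-like.

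There was 1 array for each group. No difference given here has therefore been checked in replicates, and no test or p-value is given. Hybridization and scanning took place on a different day for each array, so a group cannot be told apart from its day. The values are MAS5 signals, an Affymetrix summary of the probes of a probe set in arbitrary units, and their medians over 15502 probe sets were 34.7 for the C1q-like morpholino and 32 for the control. Lower signals were set to 33.3, the median over the arrays, in every ratio. A gene with a signal at or above this value, called the floor here, on either array was called measured. Where 1 of the signals lay under the floor, the ratio is a bound for the deposited signals alone, and other settings can give a smaller value. The floor also fixed the direction of each such ratio. All 8 genes found were measured, as were 5956 genes in all. The knockdown itself could not be checked, as no probe set read here carried the name of the target. Levels of different genes were not compared, since each probe set has its own brightness. Whole embryos were used, so more cells of a type and more RNA per cell cannot be told apart.

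In zebrafish the endoderm is specified by Nodal signalling, acting through factors that include Gata5 and Sox32, and then forms the gut tube, liver and pancreas. FoxA proteins open chromatin in gut progenitors and Hhex is needed for the liver and pancreas buds. The yolk syncytial layer is a multinucleate tissue around the yolk, which packages yolk lipid into lipoproteins and secretes plasma proteins before the liver functions. Apolipoproteins and transferrin are therefore abundant in embryos in which the liver is only a bud.

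Of the 8 measured genes 6 had a higher signal on the C1q-like morpholino array and 2 a lower one. Of the 6, gata6, foxa3 and hhex reached the floor on that array alone, so the floor fixed their direction, and the count gives no support to a shift of the set. Of the 5 genes at or above the floor on both arrays 3 were higher (apoeb, tfa and fetub) and 2 lower (gata5 and vtnb). Across all measured genes 50.9% had a ratio above 1 and 48.8% a ratio below 1. The median log2 ratio of the 8 genes, which includes the 3 floored values, was 0.52, and 0.36 after quantile normalization and 0.34 after lowess centring. That of all measured genes was 0.01, with quartiles of -0.35 and 0.32. At the 2-fold limit used here 1 of the 8 genes, fetub, was higher and none was lower. The background was 1.68% of measured genes (100) past 2-fold in the higher direction and 4.08% (243) in the lower. These counts were 136 and 184 after quantile normalization and 124 and 199 after lowess centring, so the balance of higher and lower genes depended on the scaling.

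**Figure D1:**
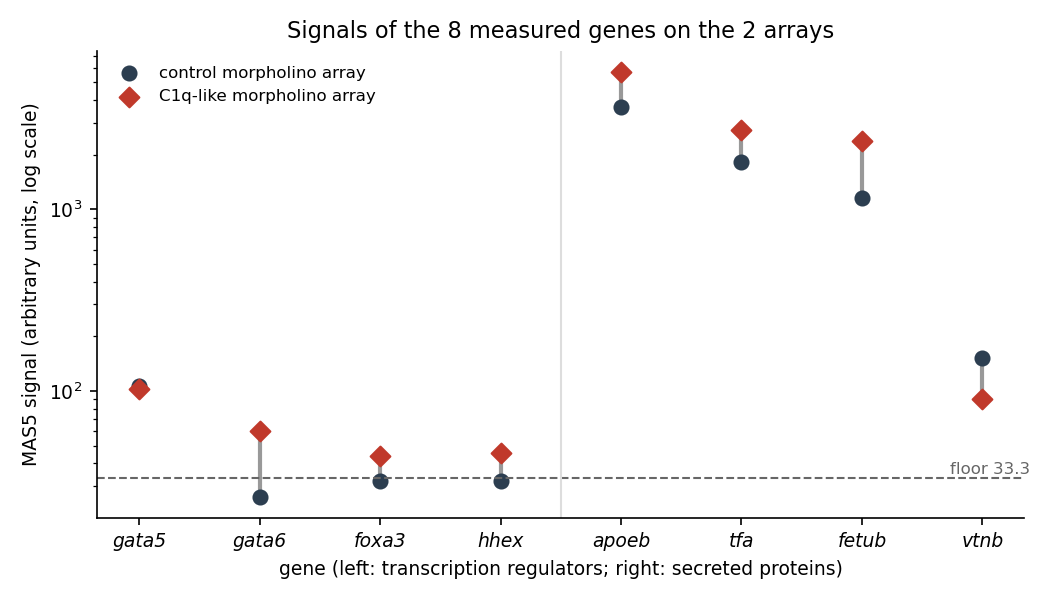
MAS5 signal (log axis) of each gene on the control morpholino array (circles) and the C1q-like morpholino array (diamonds), 1 array per group, with the floor of 33.3 dashed. The apoeb, tfa and fetub pairs lie far above the floor and are higher with the C1q-like morpholino, vtnb is lower, and the control signals of gata6, foxa3 and hhex lie under the floor.

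Among the transcription regulators, gata5, which encodes a zinc finger factor required in zebrafish for endoderm and heart formation, had a signal of 102.9 on the C1q-like morpholino array against 107 on the control array. Both signals lay above the floor and differed little. The log2 ratio of gata5 was -0.06, and 44.4% of measured genes had a ratio at or below it. Its sign turned after quantile normalization (0.10) and lowess centring (0.08), so no direction is given.

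The related gene gata6, with roles in the same tissues, read 60.4 on the C1q-like morpholino array against 26.2 on the control array. The control signal lay under the floor. With that signal raised to the floor the gene was 1.81-fold higher, a log2 ratio of 0.86, and the lowest value under other settings was 0.80. Without a floor its log2 ratio passed 1, the 2-fold limit. With the floor at the 75th percentile of signals, 93.1, the gene was below it on both arrays and had no value.

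The forkhead gene foxa3 read 43.8 on the C1q-like morpholino array against 31.9 in the control, 1.32-fold higher with the control raised to the floor. The homeobox gene hhex, which is also expressed in endothelium, read 45.4 and 32.1, 1.36-fold higher in the same way. Both genes were thus just above the floor on 1 array and just under it on the other. Their log2 ratios were 0.40 and 0.45, and the lowest values under other settings were 0.32 and 0.35.

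Of the secreted-protein genes apoeb, tfa and fetub lay far above the floor on both arrays. The gene apoeb, for an apolipoprotein E that carries lipid in lipoproteins and marks the yolk syncytial layer, had 5704.8 on the C1q-like morpholino array against 3646.2 in the control, 1.56-fold higher. The gene tfa, for the iron carrier transferrin, read 2726 and 1814.6, 1.50-fold higher. The log2 ratios were 0.65 for apoeb and 0.59 for tfa. Both genes lay among the brightest octile of measured genes, 745 genes with a median log2 ratio of 0.20, of which 68.5% had a ratio above 1. Within that octile 9.40% of genes had a ratio at least as high as apoeb and 12.9% one at least as high as tfa. Removing the trend with signal by lowess centring lowered the log2 ratios to 0.28 and 0.35, and quantile normalization to 0.30 and 0.36.

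A bright probe set annotated to both tfa and gstr, a glutathione S-transferase gene, gave 5374.3 for the C1q-like morpholino against 3928 for the control, a log2 ratio of 0.45. A dimmer one with the same pair of names read 73.5 and 78.9, a log2 ratio of -0.10. Neither can be assigned to tfa alone, and they differed in direction.

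The gene fetub encodes fetuin B, a secreted protease inhibitor of the cystatin superfamily, which in the mouse keeps the egg coat from hardening before fertilization. It had 2384.9 on the C1q-like morpholino array against 1156.7 in the control, 2.06-fold higher, a log2 ratio of 1.04. Among all measured genes 80 (1.34%) had a ratio at least as high, as did 0.805% of the brightest octile, where 1.21% were at least 2-fold higher. The gene lay just past the 2-fold limit, and quantile normalization and lowess centring put its log2 ratio just short of it, at 0.88 and 0.86.

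The gene vtnb, for the adhesive plasma glycoprotein vitronectin, went the other way. It had 89.8 on the C1q-like morpholino array against 152 in the control, 1.69-fold lower, a log2 ratio of -0.76. Ratios this low were found in 536 of the 5956 measured genes, and in 15.2% of genes of the same octile of signal. The median of that octile was -0.09, and vtnb was at -0.62 after lowess centring.

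**Figure D2:**
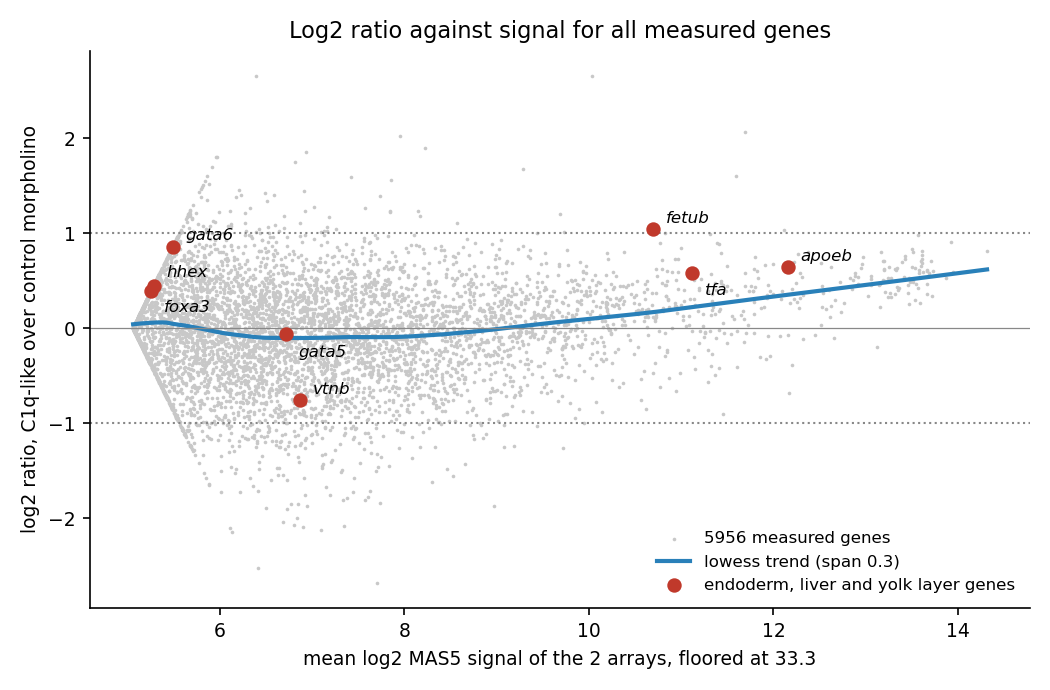
Log2 ratio of C1q-like over control morpholino against the mean log2 signal of both arrays for 5956 measured genes (grey), with the 8 genes in red, the lowess trend in blue and the 2-fold limits dotted. The trend rises at high signals, where apoeb and tfa lie above it and fetub further above, and gata6, foxa3 and hhex lie on the edge set by the floor.

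None of the 8 genes had a second probe set of its own to show measurement error. Where a gene had more than 1 measured probe set, as 789 genes did, the log2 ratios of its brightest pair differed by a median of 0.36 and by up to 1.29 at the 95th percentile. For 260 genes whose pair lay above the 75th percentile of signals these values were 0.27 and 0.90. They describe the probes and not the spread between embryos.

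**Figure D3:**
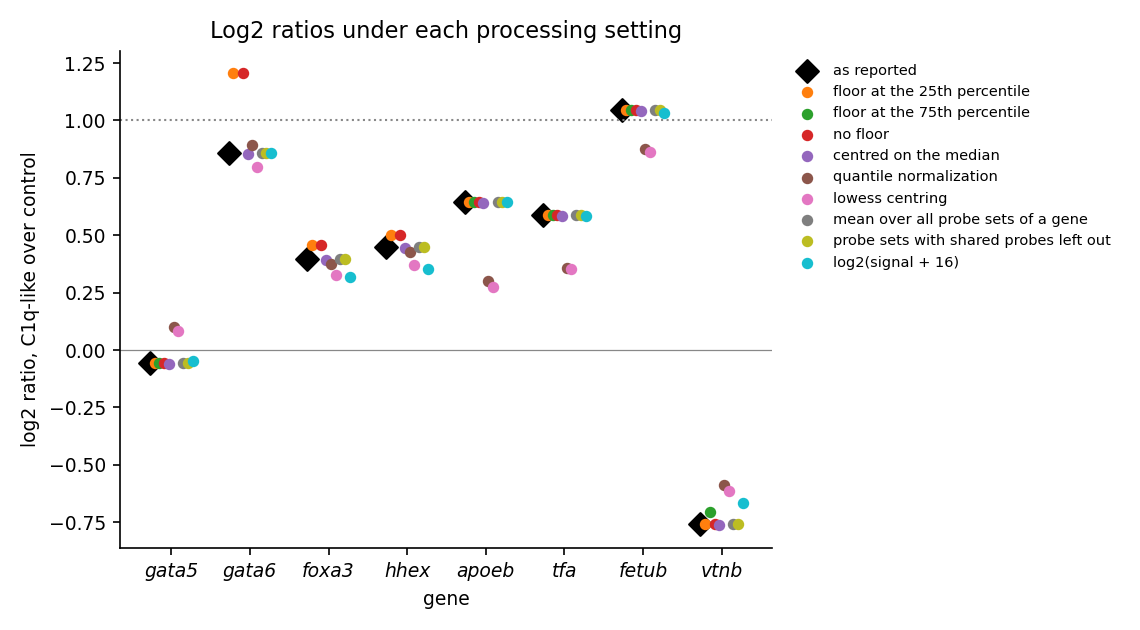
Log2 ratio of each of the 8 genes as reported (black diamond) and under the 9 other processing settings (coloured dots), with the 2-fold limit dotted. The fetub dots fall under the limit in quantile normalization and lowess centring, the gata6 dots pass it with a lower floor or none, and gata5 changes sign.

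The expected tissues were partly visible in the marker genes. Of 19 markers of endoderm, liver bud, hepatocytes, pancreas, intestine and yolk syncytial layer 18 were on the array, and 14 reached the floor on 1 array or both. Among the 14, gata6, foxa3 and hhex reached it on the C1q-like morpholino array alone and prox1a on the control array alone. The liver bud markers, hhex and prox1a, thus did not reach it on both arrays. Below the floor on both arrays were the early endoderm gene sox17 (2.9 and 0.7), the hepatocyte gene fabp10a (6.1 and 1.3), the pancreas gene pdx1 (5.3 and 11.3) and mttp (6.3 and 4.3), whose product loads lipid onto lipoproteins. The fibrinogen genes fga, fgb and fgg, expressed in hepatocytes, went both ways, at log2 ratios of 0.47, 0.16 and -0.21.

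Outside the set, more genes of endoderm specification had ratios below 1 than above. Of 20 on the array 11 were measured, 4 with ratios above 1 and 7 below, and none was past 2-fold. The 4 above, gata6, foxa3, tdgf1 and ndr2, reached the floor on the C1q-like morpholino array alone. Of the 7 below, smad2 and eomesa reached it on the control array alone. The floor fixed the direction of these floored genes, so the split of 4 and 7 gives no support to a shift of the list. The rest of the 7 lay above the floor on both arrays. They were gata5, foxa2, foxa1, cxcr4a and cxcl12b, with log2 ratios from -0.06 to -0.51. After quantile normalization gata5 was at 0.10 and foxa2 at 0.00. Among all measured genes 48.8% had a ratio below 1. The median log2 ratio of the 11 genes was -0.16, and 0.00 after quantile normalization. Without gata5, gata6 and foxa3 it was -0.34, and that median was not computed after quantile normalization. Beside gata6 and foxa3 the Nodal co-receptor gene tdgf1 was highest (41 and 22.6, the second under the floor, a log2 ratio of 0.30). The lowest were the chemokine gene cxcl12b at -0.51, its receptor gene cxcr4a at -0.45 and the T-box gene eomesa at -0.44 (30.1 and 45.3, the first under the floor). The foxa3 relatives foxa1 (56.4 and 74.4) and foxa2 (89.9 and 100.2) had log2 ratios of -0.40 and -0.16, but foxa2 was at 0.00 after quantile normalization, so no direction is given for it. Both are also expressed in the floor plate.

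Regulators of the liver and foregut had more genes above than below a ratio of 1. Of 18 on the array 12 were measured. Of these 10 were higher and 2 lower, and the median log2 ratio was 0.41, or 0.25 over the 8 genes that are not in the set. Of the 10, gata6, foxa3 and hhex reached the floor on the C1q-like morpholino array alone. Of the 2 lower, prox1a reached it on the control array alone. The floor fixed the direction of these genes. The other higher genes, id2a, tbx3a, fgf10a, cebpb, nr0b2a, cebpa and cebpd, and the lower gata5 lay above the floor on both arrays. The list was chosen with earlier results of these data known, so the count is no evidence of a shift of the list. Among the other higher genes, nr0b2a, cebpa and cebpd were close to a ratio of 1, at log2 ratios of 0.08, 0.07 and 0.04. A second probe set of nr0b2a gave 0.30 (141.3 and 114.4). The genes fgf10a (52.5 and 37.3) and cebpb (169.4 and 126.5) were at 0.49 and 0.42. The share above 1 over all measured genes was 50.9%. The list median was 0.23 with the floor at the 25th percentile of signals and 0.08 with that at the 75th. Highest after gata6 were id2a, for an inhibitor of bHLH factors (445.3 and 312.2), and the T-box gene tbx3a (65.7 and 46.1), both at 0.51. The lowest was prox1a, a homeobox gene of the liver bud, at -0.29 (3.4 and 40.8, the first far under the floor). The genes gata5 at -0.06 and cebpd, of the C/EBP family, at 0.04 followed. The gata5 relative gata4 and the hepatocyte regulator gene hnf4a were below the floor on both arrays. None of the 12 was past 2-fold.

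The list of liver secreted-protein genes, which also held genes of liver enzymes such as ces3 and tat, was divided. Of 31 measured from 44 on the array, 18 were higher and 13 lower, with a median log2 ratio of 0.16, and 0.12 over the 27 outside the set. The share above 1 was 50.9% over all measured genes. It was 68.5% in the brightest octile, where apoeb, tfa and fetub lie. Of the 18, igfbp1a was at 0.12, but its other probe set gave -1.01 (11.6 and 67.1, the first under the floor). Of the 13, c9 was at -0.57, with -0.52 and 0.01 by its other probe sets. Of the 18, proca reached the floor on the C1q-like morpholino array alone, and of the 13, f5 on the control array alone. The highest was kng1, for kininogen, a precursor of the peptide bradykinin and, like fetub, a gene of the cystatin superfamily. It read 434.4 and 183.9, 2.36-fold higher, and together with fetub it made up the 2 genes of this list past 2-fold. Next came ces3, a carboxylesterase gene, at 0.86. Lowest were hp, for the hemoglobin-binding protein haptoglobin, at -0.77 (140.7 and 240.5), vtnb at -0.76 and apoea at -0.76. The summed signal of the list was 42574 against 33193 in the control, 1.28-fold higher, and most of that sum lay in a few bright apolipoprotein genes.

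For yolk syncytial layer and lipoprotein genes the median log2 ratio was 0.37. Of 24 measured from 30 on the array 17 were higher, 7 lower and none past 2-fold. The share above 1 was 50.9% over all measured genes and 68.5% in the brightest octile. Of the 17, gata6 reached the floor on the C1q-like morpholino array alone, and of the 7, lrp1aa on the control array alone. Over the 21 outside the set the median was 0.34. The highest were scarb1, a lipoprotein receptor gene (111.8 and 60.7), at 0.88 and the lipoprotein lipase gene lpla at 0.87. A second probe set of scarb1 gave 0.30 (41 and 27.6, the second under the floor, which fixed its direction). The lowest were apoea at -0.76, sar1b, for a GTPase that exports lipoprotein particles, at -0.72, and apoa4a at -0.50. Quantile normalization and lowess centring, which take out the trend with signal, each lowered the median of the list to 0.13.

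**Figure D4:**
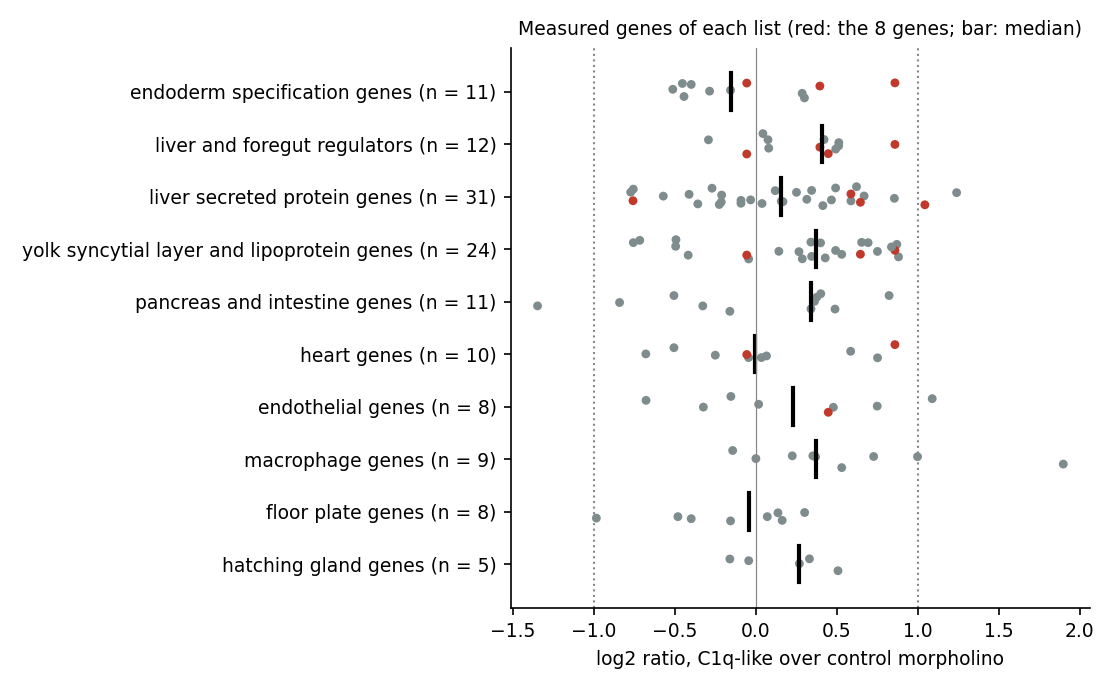
Log2 ratio of C1q-like over control morpholino for every measured gene of each list (dots, the 8 genes in red) with the list median (bar) and the 2-fold limits dotted. The medians of the endoderm, heart and floor plate lists lie at or under 0. Those of the liver regulator, yolk layer, macrophage, and pancreas and intestine lists lie from 0.34 to 0.41, with wide spread in each.

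The apolipoprotein genes, a group formed after their values were seen, did not move as one. Of 12 measured 8 were higher and 4 lower, and after quantile normalization or lowess centring 6 were above 1. All but apoa4a had signals in the range of the brightest octile, where 68.5% of genes had a ratio above 1. The count of 8 of 12 was thus near the share of bright genes in general. The paralogues of apolipoprotein E were opposed. Against the 1.56-fold higher signal of apoeb, apoea had 1166.5 on the C1q-like morpholino array against 1971.6 in the control, 1.69-fold lower, and this stayed so after quantile normalization (0.30 for apoeb, -0.93 for apoea).

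In the gene table of assembly GRCz12tu, apoeb lies between apoa4b.2 and apoc1, with apoa2, apoc2 and apoa4b.1 close by. Of these, apoc1 read 8745.8 and 6055.4 and apoa2 7990.3 and 5679.1, log2 ratios of 0.53 and 0.49. The gene apoa4b.2 read 2224.9 and 3132.8, a log2 ratio of -0.49, with -0.62 by its second probe set. The gene apoa4b.1 was at -0.04 and apoc2 at 0.14. In the same table apoea is next to apoa4a, which read 237.1 and 334.3, a log2 ratio of -0.50. All 3 measured apoa4 genes thus had ratios below 1, beside the 8 higher genes that included those of apolipoproteins A-I, A-II, B and C. Of the latter, apoa1a and apoc2 turned to below 1 after quantile normalization, at -0.18 and -0.08, and after lowess centring, at -0.14 and -0.12.

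**Figure D5:**
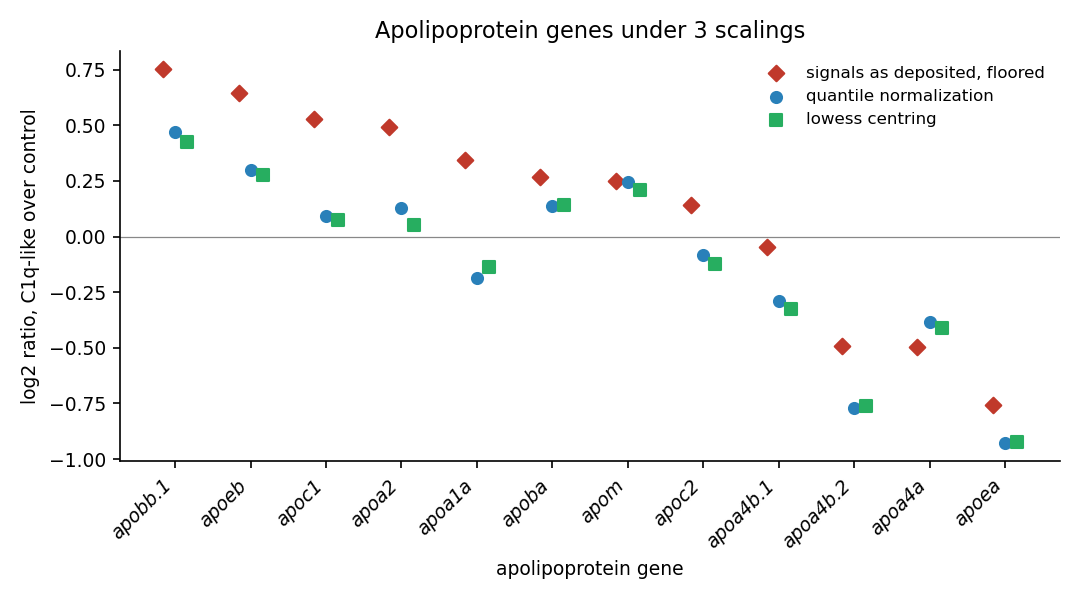
Log2 ratio of C1q-like over control morpholino for the 12 measured apolipoprotein genes, from signals as deposited with the floor (diamonds), after quantile normalization (circles) and after lowess centring (squares). The apobb.1 and apoeb points stay above 0 and the apoa4 and apoea points below 0 in all 3, while apoa1a and apoc2 cross it.

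For pancreas and intestine genes, 11 measured of 27, the median log2 ratio was 0.34. The insulin gene ins was highest at 0.82 (207.5 and 117.3), followed by the somatostatin gene sst2 at 0.49 and the intestinal fatty acid binding gene fabp2 at 0.40 (2693.1 and 2039.7). Higher were 6 and lower 5, beside 50.9% above 1 over all measured genes. The median fell to 0.17 after quantile normalization, 0.15 after lowess centring, and 0.17 and 0.13 with the lower and higher floor. Of the 6, sst1.1 and cdx4 reached the floor on the C1q-like morpholino array alone. Of the 5, ptf1a and pax6b reached it on the control array alone. The floor thus fixed the direction of these genes. The lowest were neurod1, 2.55-fold lower, pax6b (9.3 and 59.7, the first under the floor, at least 1.79-fold lower) and isl1a at -0.51, which are expressed in neurons as well as in endocrine cells.

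Several of the 8 genes are also expressed outside the endoderm and yolk layer, and genes of those tissues were read beside them. For gata5 and gata6 this is the heart, where 10 of 17 genes were measured with a median of -0.01. Of these 5 were on each side of a ratio of 1, beside 50.9% above 1 over all measured genes. Of the 5 higher, gata6 and mef2ca reached the floor on the C1q-like morpholino array alone. The list median turned to above 0 under 6 of the 9 other settings. The heart list had a summed signal of 1861.3 against 1514.4, in which cmlc1 (485.9 and 288.6) and myl7 (628.7 and 419) were the brightest genes. Such sums, here and for the other lists, follow the brightest probe sets and include genes under the floor. The cardiac myosin light chain genes cmlc1 and myl7 were highest after gata6, at 0.75 and 0.59, and tbx2b, isl1a and hand2 lowest, at -0.68, -0.51 and -0.25. The cardiac factor nkx2.5 was below the floor. The part of heart cells in the gata6 value was not tested.

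For hhex it is the endothelium, where 8 of 13 genes were measured. Of these 5 were higher and 3 lower, beside 50.9% above 1 over all measured genes. The median of the 8 was 0.23, or 0.02 without hhex. With the floor at the 25th percentile the list median was 0.00. The water channel gene aqp8a.1 was at 1.09, dusp5 at 0.75, fli1rs at 0.48 and flt4 at 0.02. The vascular genes plvapb and kdrl were at -0.15 and -0.68, and fli1 read 23.1 and 41.7, the first under the floor, at least 1.25-fold lower. The summed signal was 579 against 535.6, and the markers tal1, tie1 and tek were under the floor on both arrays. The endothelial marker cdh5 was not on the array. How much endothelium contributes to the hhex value was not tested.

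For apoeb it is the macrophages and the skin. Of 17 macrophage genes on the array 9 were measured. Higher were 7 and lower was 1, and the median was 0.37. The share above 1 over all measured genes was 50.9%. Of the 7, spi1b and c1qc reached the floor on the C1q-like morpholino array alone, so the floor fixed their direction. The median was itself the floored value of spi1b. The cathepsin gene ctss2.2 was not counted as measured, as the probe set used read 31.7 and 24.5. Its other probe set read 11.3 and 49.3, the first under the floor, a log2 ratio of -0.57. The cathepsin genes ctsc (578.9 and 155.2) and ctss2.1 (977.3 and 489.1) were highest, then coro1a at 0.73, with -0.09 by its second probe set, while cd68 was at 0.22, laptm5 at 0.00 and lcp1 at -0.14. The summed signal was 11155 against 7360, of which the lipoprotein gene apoc1 formed the most, and the defining receptor gene csf1ra was under the floor (4.6 and 2.5). The macrophage marker mpeg1.1 was not on the array. The epidermal keratin genes krt4 (17052.4 and 8631.3) and krt5 (3622.8 and 2300.8) had log2 ratios of 0.98 and 0.65. The part of these cells in the apoeb value was not tested.

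For foxa3 the floor plate and the hatching gland were read. The floor plate list had 8 of 10 genes measured, with 4 on each side of a ratio of 1, beside 50.9% above 1 over all measured genes. The list median of -0.04 turned to 0.05 after quantile normalization. The signalling genes shhb and shha were at 0.30 and 0.16, foxa at 0.14 (36.6 and 17.5, the second under the floor), sulf1 at 0.07, spon1b at -0.48 (31.6 and 46.5, the first under the floor) and ntn1a at -0.99. A second measured probe set of ntn1a read 38.6 and 27.7, the second under the floor, a log2 ratio of 0.21. The floor thus fixed the direction of that value. The summed signal was 513.1 against 546.9. Hatching gland genes had a median of 0.27 over 5 measured of 7, with cd9b at 0.51, cd63 at 0.33, xbp1 at 0.27, klf17 at -0.04 and agr2 at -0.16, and a summed signal of 4065.5 against 3359.7. The hatching gland markers ctslb and he1.1 were not on the array, and ctsl.1 and klf4 were below the floor. The part of either tissue in the foxa3 value was not tested.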

How the data were processed

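Biotin-labelled RNA of embryos was measured on Affymetrix zebrafish arrays, 1 for each group, per the labels. The authors deposited 1 signal intensity per probe set, made by MAS5, as the submitters' processing notes give. Neither its version nor its scaling target is stated in them. The trimmed mean, leaving out 2% at each end, was 98.8 for the C1q-like morpholino and 99.4 for the control. Of 42 settings in the experiment files 2 differed, the days of hybridization and scanning.

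Signals were raised to a floor of 33.3 and the log2 ratio of C1q-like over control morpholino was taken. Gene names came from the platform annotation, with symbols brought up to date by Entrez number from the RefSeq table of GRCz12tu. A single gene was named by 10795 of the 15502 probe sets (10711 of them matched in RefSeq), several genes by 135 and no gene by 4572. Where several probe sets named a gene, the one with the highest mean log2 signal was used. With 1 array per group no test was made, and the number of arrays limits the precision. The genes and lists were chosen with earlier results of these data known, and some lists were trimmed of general genes and older names later. Outside the set, the text names the 3 highest and 3 lowest measured genes of each of 10 lists, all where 8 or fewer were measured, and relatives of the set. Of other genes, the apolipoproteins, the markers and genes that reached the floor on 1 array only are given as such. So are the rest of the higher liver and foregut regulators and genes whose probe sets disagreed. The alternatives were other floors or none, a pseudocount of 16, centring, quantile normalization, lowess (span 0.3), the mean of probe sets, and probe sets with shared probes left out. The computation was tested on simulated data, with log2 changes of 2 in either direction planted in probe sets with bright control signals. That test did not cover smaller changes, such as those of the 8 genes, or signals near the floor. It used Python 3.11.15, pandas 2.3.3, statsmodels 0.14.6, scipy 1.17.1 and numpy 2.4.6.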

Additional observations from a re-analysis of the deposited data

How the results depend on the processing

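No paired analysis was possible because each group has 1 array. Of 69 log2 ratios of the 8 genes under 9 alternatives, 67 had the sign of the reported value, and the exceptions were gata5 after quantile normalization and lowess centring. Many of these signs were fixed beforehand, so the count does not measure how stable they are. Each gene had 1 probe set, so the mean of probe sets and leaving out shared probes repeated the reported value. The sign of gata6, foxa3 and hhex was set by their reaching the floor on 1 array alone. The genes at least 2-fold higher numbered 2 of the 8 with the floor at the 25th percentile or with none (fetub and gata6), and 0 after quantile normalization and lowess centring. With the floor at the 75th percentile 5 of the 8 were measured, 3 of them with ratios above 1, and gata6, foxa3 and hhex had no value. Across all genes, the counts at least 2-fold higher and lower were 545 and 448 with the lower floor, and 31 and 103 with the higher one. With no floor, over the same 5956 genes, 356 were past 2-fold in the higher and 362 in the lower direction, close to even. Of the list medians, that of secreted-protein genes was 0.04 with the higher floor, that of macrophage genes 0.73 with the higher floor or none, and that of hatching gland genes 0.11 with the lower floor. Fewer genes reach a higher floor, and low signals spread more without one. Leaving out a replicate could not be done. Signal near background limits gata6, foxa3 and hhex most.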
